A study of Mus musculus with 6 samples.

Results

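The potassium channel genes of the kidney collecting duct were described in mpkCCD clone 11 cells. This immortal mouse line derives from the cortical part of the duct. The 8 gene symbols considered were Kcnj1, Kcnj10, Kcnj15, Kcnj16, Kcnma1, Kcnk1, Kcnq1 and Kcnn4, and every probe set annotated to exactly 1 of them was taken. This gave 8 probe sets of 6 genes, out of 23097 single-gene probe sets of 12364 genes in the table. Kcnj10, Kcnj15, Kcnma1 and Kcnq1 had 1 probe set each, and Kcnj16 and Kcnk1 had 2 each. Kcnj1 and Kcnn4 had 0 probe sets in the table and were not analysed here, so these data give no level or change for either.

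The cells came from a single clone and were polarized on membrane inserts. Once the electrical resistance of the layer had reached at least 5 kohm per cm2, 3 samples received 0.1 nM dDAVP for 5 days and 3 received vehicle alone for the same time. dDAVP, also called desmopressin, is a peptide analog of vasopressin selective for the V2 receptor, and the design asks which transcripts differ after this exposure. Each sample was hybridised to 1 Affymetrix Mouse Genome 430 2.0 array, and the labels call the samples of a group biological replicates. No source used here says if these were separate passages or days, so p-values measure only the spread between these 6 samples.

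In the collecting duct, principal cells take up sodium through an apical channel and secrete potassium into the urine, while a basolateral sodium pump brings potassium into the cell. The apical exits are the inward rectifier ROMK, encoded by Kcnj1, and the large-conductance calcium-activated channel BK, whose pore is encoded by Kcnma1. Basolateral inward rectifiers, encoded by Kcnj10 together with Kcnj16, return potassium to the blood side and set the membrane voltage. Vasopressin acts on this segment through the V2 receptor and cAMP, and is known to stimulate potassium secretion there.

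Markers of principal cells were read as a check of the cells and the treatment. Aqp2, the water channel that vasopressin regulates, measured 10.93, 10.79 and 10.82 log2 units in dDAVP cells, against 6.65, 6.72 and 6.72 in vehicle cells. It rose by 4.15 log2 units (limma adjusted p = 1.66e-07). Among 10 measured of 11 listed principal cell markers 3 rose and none fell (0) at a limma adjusted p below 0.05. Of all genes, 0.291% had such an adjusted p in either direction. Besides Aqp2 these were Fxyd4 (log2 change 0.68) and Avpr2 (0.52). The other 7, among them Scnn1g (0.26), Scnn1a (0.02), Hsd11b2 (-0.04) and Gata3 (-0.08), did not pass. Elf5, also 1 of the 7, averaged 3.74 in dDAVP cells and 3.75 in vehicle cells, at the upper end of background. As a guide to background, the 10 olfactory receptor probe sets were used, since kidney cells were assumed not to express those genes, and their values ran from 2.51 to 3.74 on single arrays. Of 11 intercalated cell markers 4 were measured. None of the 4 passed (0 by limma), and 2 were higher at an unadjusted p below 0.05. Of all genes, 7.80% had such a p in either direction. The 2 were the proton pump subunit genes Atp6v1b1 (log2 change 0.32 ± 0.063 SE) and Atp6v0a4 (0.42 ± 0.12). Rhcg had 0.11 ± 0.074, and Aqp6 had -0.08 ± 0.056 on its probe set of highest signal. The mean level of the 4 was 7.34 to 7.49 on dDAVP arrays and 7.18 to 7.28 on vehicle arrays. The part of that difference in the channel values was not tested. Slc4a1, Slc26a4 and Foxi1, which define intercalated cells, were not analysed here. Fewer cells of a type and less RNA per cell cannot be told apart in these bulk samples. Of 25 markers of 4 other groups of cell types, 10 were measured. The groups were thick ascending limb and distal convoluted tubule, proximal tubule, smooth muscle and fibroblast, and leukocyte. By the probe set of highest signal, 0 of the 10 passed in limma and 0 had an unadjusted p below 0.05. The levels of 5 of the 10 lay within the olfactory receptor range, namely Slc12a1, Aqp1, Col1a1, Col3a1 and Ptprc. Of the other leukocyte markers, the receptor gene Csf1r averaged 9.29 log2 units in dDAVP cells and 9.42 in vehicle cells, and Cd74 averaged 4.60 in dDAVP cells and 4.62 in vehicle cells. Lrp2, a proximal tubule receptor, averaged 8.25 log2 units in dDAVP cells and 8.35 in vehicle cells on its probe set of highest signal. Another Lrp2 probe set, 1427133_s_at, was lower at an unadjusted p below 0.05, with groups that did not overlap. Its log2 change was -0.17 ± 0.063 (SE, limma adjusted p = 0.543). The medians of the 6 arrays differed by at most 0.043 log2 units.

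None of the 8 channel probe sets passed in limma at a p below 0.05 after Benjamini-Hochberg adjustment (0 of 8), where 0.216% of all 28225 probe sets passed. At an unadjusted p below 0.05, 2 channel probe sets were higher and 0 were lower, where 4.85% of all probe sets were higher at that p. For the same 2 probe sets, of Kcnj10 and Kcnma1, all dDAVP arrays lay above all vehicle arrays, as they did for 8.07% of all probe sets. Counted by gene, 0 of 6 passed, where 0.291% of all genes did. The log2 change (dDAVP minus vehicle) was positive for 6 and negative for 2 of the 8, and it was positive for 51.7% of all probe sets. The median log2 change was 0.08 over the 8 probe sets and 0.0039 over all probe sets tested.

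**Figure D1:**
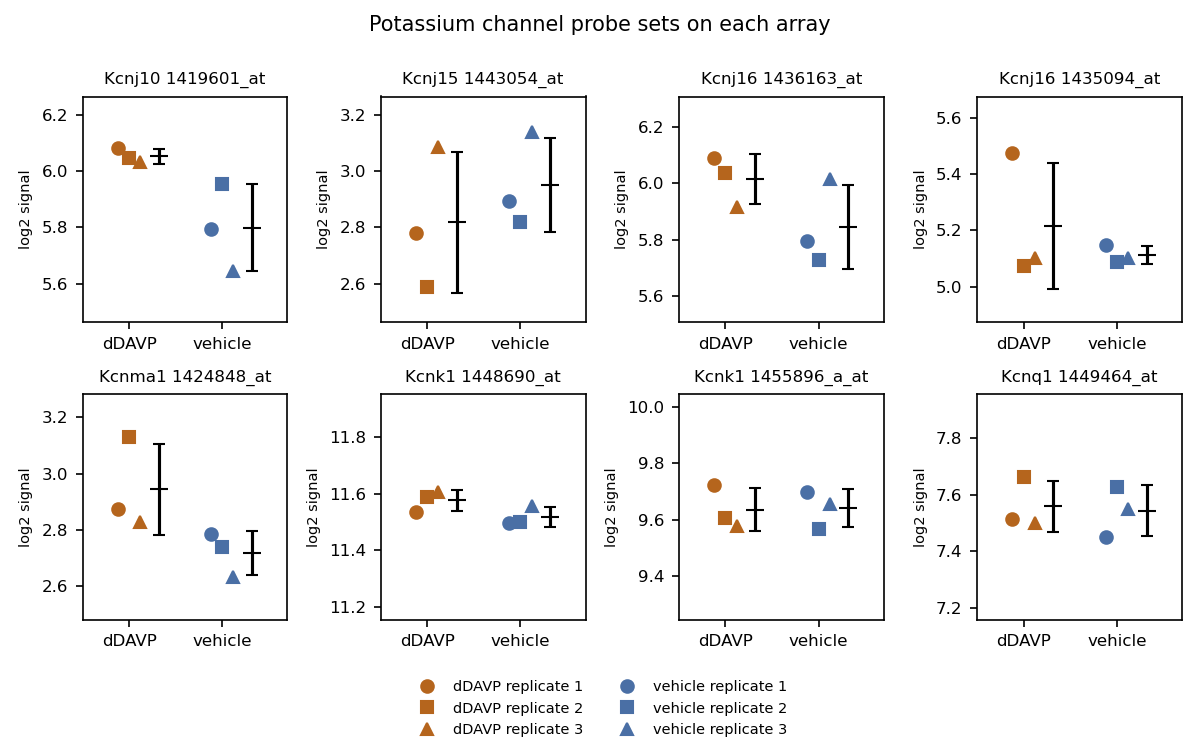
Log2 signal of each of the 8 channel probe sets on the 3 dDAVP and 3 vehicle arrays, with 1 symbol per array and a bar for the mean ± SD of each group. Every panel spans the same height on the log2 scale, so spreads can be set side by side. The groups are apart only for Kcnj10 and Kcnma1.

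Kcnj10 encodes Kir4.1, the basolateral inward rectifier. Its probe set 1419601_at measured 6.08, 6.05 and 6.03 log2 units in dDAVP cells, against 5.80, 5.95 and 5.65 in vehicle cells. All 3 dDAVP arrays lay above all 3 vehicle arrays, by a gap of 0.08 between the nearest values. The means were 6.05 ± 0.026 in dDAVP cells and 5.80 ± 0.15 in vehicle cells (SD, n = 3 each), so most of the spread was among vehicle arrays. The log2 change was 0.25 ± 0.084 (SE), or 1.19-fold with a 95% interval of 1.04 to 1.36. This was the lowest p of the channels, but it did not pass over all probe sets (limma adjusted p = 0.478), and 3.48% of all probe sets had a p as low. The log2 change was 0.18 without vehicle replicate 3 and 0.33 without vehicle replicate 2, and neither fit passed.

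Kcnj16 encodes Kir5.1, which has little activity alone and joins Kir4.1 in mixed channels. Its probe set of higher signal, 1436163_at, measured 6.09, 6.04 and 5.92 in dDAVP cells, against 5.79, 5.73 and 6.01 in vehicle cells. The groups overlapped through dDAVP replicate 3 and vehicle replicate 3, and the log2 change was 0.17 ± 0.090 (SE; 95% interval -0.04 to 0.38, limma adjusted p = 0.718). The other probe set, 1435094_at, measured 5.47, 5.07 and 5.10 in dDAVP cells, against 5.15, 5.09 and 5.10 in vehicle cells. Here dDAVP replicate 1 stood above the other 5 arrays, which lay close together. Its log2 change was 0.10 ± 0.11 (SE, limma adjusted p = 0.889), and -0.02 without dDAVP replicate 1. The 3 probe sets of the partner genes of the basolateral channel had positive changes as deposited, where 51.7% of all probe sets did. None of the 3 passed (0).

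Kcnj15 encodes Kir4.2, a relative of Kir4.1 known in the kidney mainly from the proximal tubule. Its probe set 1443054_at measured 2.78, 2.59 and 3.08 in dDAVP cells, against 2.89, 2.82 and 3.14 in vehicle cells. The groups overlapped, and replicate 3 was the highest array of each group. The log2 change of -0.13 ± 0.14 (SE) did not pass (limma adjusted p = 0.886). All 6 values lie within the range of the olfactory receptor probe sets. The Kcnj15 signal could therefore not be told from background in either group, and no fold is given.

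Kcnma1 encodes the pore of BK, which opens with flow and intracellular calcium. Its probe set 1424848_at measured 2.87, 3.13 and 2.83 in dDAVP cells, against 2.78, 2.74 and 2.63 in vehicle cells. The 3 dDAVP arrays lay above the 3 vehicle arrays, with a gap of 0.04, and dDAVP replicate 2 was the highest. The log2 change was 0.22 ± 0.092 (SE; limma adjusted p = 0.601), and 0.13 without dDAVP replicate 2. All 6 values lie within the range of the olfactory receptor probe sets, so neither group had a signal that could be told from background and no fold is given. Of the subunits and partners known to join BK or Kcnq1 channels, listed as 14 gene symbols, 1 was measured. This was Lrrc26, a leucine-rich partner that lets BK open at more negative voltages, at 5.23, 5.37 and 5.20 in dDAVP cells and 5.30, 5.31 and 5.24 in vehicle cells. Its groups overlapped, and its log2 change was -0.02 ± 0.067 (SE, limma adjusted p = 0.974).

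Kcnk1 encodes TWIK-1, a background channel with tandem pore domains. Its probe set of higher signal, 1448690_at, measured 11.53, 11.59 and 11.61 in dDAVP cells, against 11.50, 11.50 and 11.56 in vehicle cells. The groups overlapped, and the 6 arrays spanned 0.11 log2 units. The log2 change was 0.06 ± 0.057 (SE), or 1.04-fold with a 95% interval of 0.950 to 1.14 (limma adjusted p = 0.882). The other probe set, 1455896_a_at, measured 9.72, 9.61 and 9.58 in dDAVP cells, against 9.70, 9.57 and 9.65 in vehicle cells. Its groups overlapped as well, and its fold of 0.996 had an interval of 0.893 to 1.11 (limma adjusted p = 0.992). Both Kcnk1 probe sets lay above the median of 6.72 over all probe sets. Over both probe sets the intervals as deposited reached up to 1.14-fold and down to 0.893-fold of the vehicle signal.

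Kcnq1 encodes a voltage-gated channel that works with small accessory subunits of the KCNE family. Its probe set 1449464_at measured 7.51, 7.66 and 7.50 in dDAVP cells, against 7.45, 7.63 and 7.55 in vehicle cells. The groups overlapped, and replicate 2 was the highest array of each. The fold was 1.01 with a 95% interval of 0.897 to 1.14 (log2 change 0.02 ± 0.075 SE, limma adjusted p = 0.980). Kcnq1ot1, a long non-coding RNA that overlaps Kcnq1 in the RefSeq annotation (GRCm38.p6), had a log2 change of 0.03 ± 0.088 (SE, limma adjusted p = 0.964) on its probe set of highest signal. Its other 5 probe sets ran from -0.19 to 0.14, and 0 of the 6 passed. The mean levels of 1441588_at, 1446255_at and 1442029_at, which had the -0.19, lay within the olfactory receptor range.

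**Figure D2:**
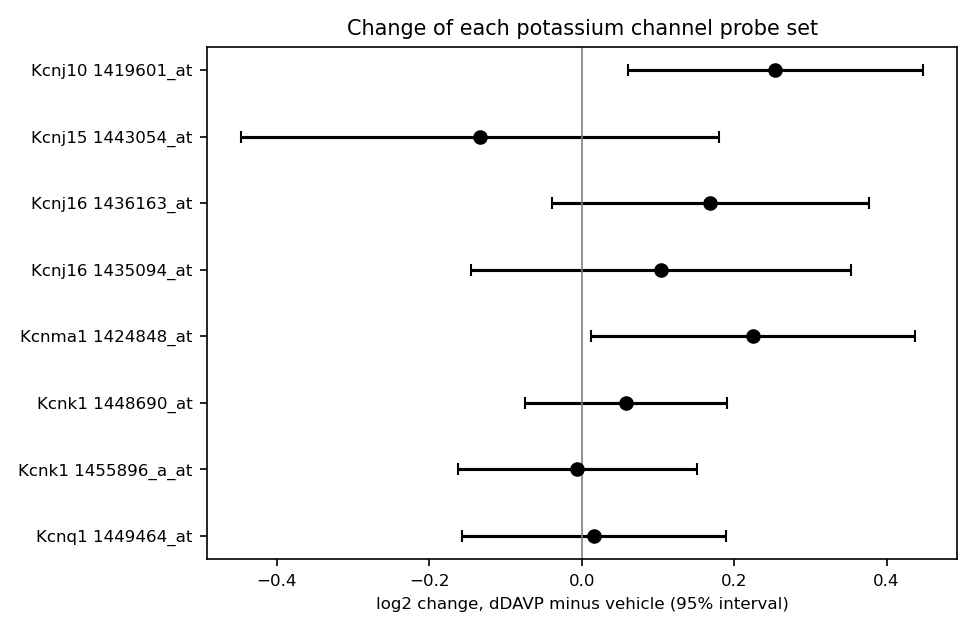
Log2 change (dDAVP minus vehicle) of the 8 channel probe sets with 95% intervals from limma. The intervals of Kcnj10 and Kcnma1 lie above 0 without adjustment for the number of probe sets tested, and the other 6 include 0.

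The precision differed between the channels. For the 6 probe sets of Kcnj10, Kcnj16, Kcnk1 and Kcnq1, whose levels lay above the olfactory receptor range, the 95% intervals ran no lower than -0.16 and no higher than 0.45 log2 units as deposited. Over all settings the lowest bound was -0.23, that of Kcnq1 without dDAVP replicate 2. The highest bound, that of Kcnj10, was 0.63 with arrays scaled to hybridisation controls. Under that scaling the upper bounds of Kcnj16 1436163_at and 1435094_at were 0.54 and 0.47. Those of Kcnk1 1448690_at and Kcnq1 were 0.41 and 0.40, and that of Kcnk1 1455896_a_at was 0.33. The intervals of Kcnj15 and Kcnma1 describe signals that could not be told from background, and set no limit on a change of their transcripts. The residual SD of the 8 probe sets was 0.070 to 0.17 log2 units, with 0.096 the median of all probe sets. A p that missed the threshold does not show that the groups were alike.

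The profile of Kcnj10 over the 6 arrays was set against 23096 probe sets of other genes, with each profile centred on its own mean. The nearest were Cox7c, a subunit of cytochrome c oxidase, with a root mean square difference of 0.023 log2 units, Marveld1 with 0.031 and Cfap69 with 0.034. In all 661 probe sets lay within 0.1, while a flat profile lay at 0.16. The Cox7c probe set measured 4.85, 4.80 and 4.81 in dDAVP cells and 4.56, 4.67 and 4.42 in vehicle cells. Like Kcnj10 it had close dDAVP values and its lowest value in vehicle replicate 3. The 3 were picked for likeness to Kcnj10, so similar changes follow from that choice. None of them passed (0), with limma adjusted p of 0.375 for Cox7c, 0.525 for Marveld1 and 0.565 for Cfap69.

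The other potassium channel genes, taken as every further symbol that starts with Kcn, numbered 28 with 39 probe sets. By the probe set of highest signal, 0 of the 28 passed in limma and 0 had an unadjusted p below 0.05, where 7.80% of all genes did. Counting all 39 probe sets, 0 passed and 1, of the calcium-activated channel gene Kcnn1, was lower at an unadjusted p below 0.05 (-0.15 ± 0.065 SE, named after its value was seen). The Kcnn1 probe set of higher signal had 0.04 ± 0.10. The changes of the 28 ran from -0.14 to 0.17, with a median of 0.02. The median was 0.11 over the 6 described channel genes and 0.012 over all genes. The 6 include Kcnj15 and Kcnma1, whose signals could not be told from background, and the difference between these medians was not tested. For 15 of the 28 the mean level lay within the olfactory receptor range. The lowest p belonged to the voltage-gated channel genes Kcna6 (0.13 ± 0.058 SE) and Kcnd3 (-0.14 ± 0.063), with limma adjusted p of 0.633 and 0.638. Next were the background channel gene Kcnk10 (0.15 ± 0.11, and 0.09 to 0.24 in fits without 1 array) and Kcns2 (-0.10 ± 0.078, and -0.15 to -0.04), a modifier of voltage-gated channels. The signals of Kcnd3, Kcnk10 and Kcns2 lay within the olfactory receptor range and could not be told from background. Some of the 28 symbols, such as Kcnip1, Kcnip4 and Kcnab2, are partners of channels rather than pores, and Kcnq1ot1 is not a channel.

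**Figure D3:**
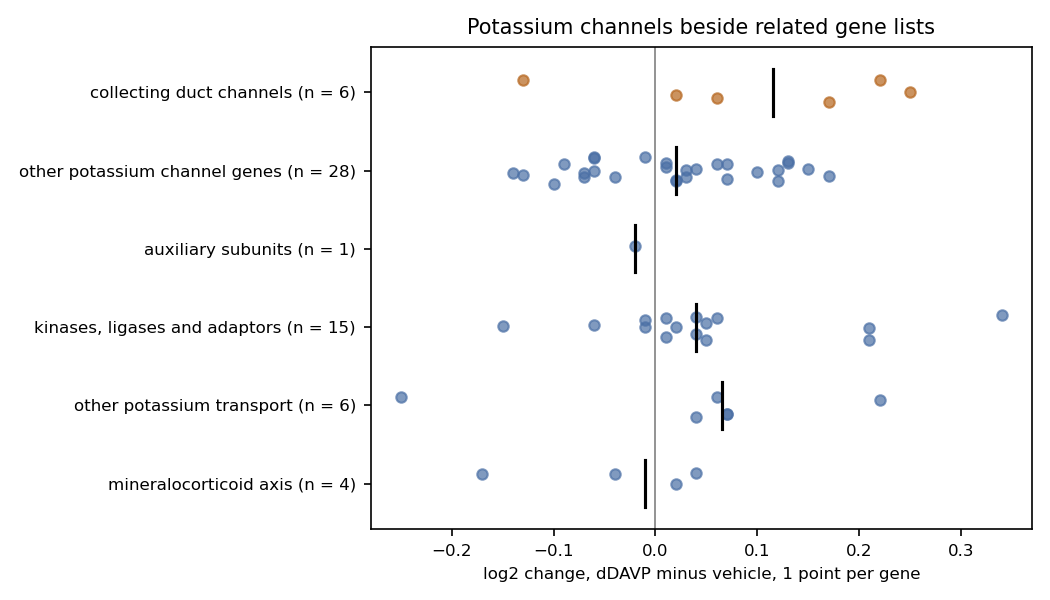
Log2 change (dDAVP minus vehicle) of each gene by its probe set of highest signal, with 1 point per gene and a black bar for the median of each list. The 6 channel genes ran from -0.13 to 0.25, the 28 other potassium channel genes from -0.14 to 0.17 and the kinases, ligases and adaptors from -0.15 to 0.34, and 0 genes shown passed the test.

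ROMK and BK are governed by WNK kinases, SGK kinases, ubiquitin ligases and adaptor proteins, of which 15 of 18 listed genes were measured. None of the 15 passed in limma (0), and their median log2 change was 0.04. At an unadjusted p below 0.05 there were 3 higher and 1 lower, where 7.80% of all genes had such a p in either direction. Counting all 45 probe sets, 0 passed, and 6 were higher and 2 lower at that p, where 4.85% of all probe sets were higher. These include 1 probe set of Itsn1 (0.23 ± 0.089 SE) and 1 of Cul3 (-0.17 ± 0.073). The probe sets of highest signal of these genes had 0.01 and -0.06. Sgk2, a kinase related to the aldosterone-induced kinase Sgk1, measured 6.03, 5.91 and 5.99 in dDAVP cells, against 5.68, 5.76 and 5.48 in vehicle cells. The groups did not overlap, and the log2 change was 0.34 ± 0.084 (SE, limma adjusted p = 0.308). Slc9a3r1, a scaffold that binds ROMK and other membrane proteins, had 0.21 ± 0.061 (adjusted p = 0.411), and its other 2 probe sets had 0.17 and 0.18. Wnk4, which regulates ROMK at the surface, had 0.21 ± 0.083 (adjusted p = 0.585). Oxsr1, a kinase activated by WNK kinases, had -0.15 ± 0.057 (adjusted p = 0.539).

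Of 10 other potassium transport genes 6 were measured, and 0 passed in limma. At an unadjusted p below 0.05, 1 was higher, where 7.80% of all genes had such a p in either direction. That 1 gene was Atp1b1, the beta subunit of the sodium pump that loads the cell with potassium. Its probe set of highest signal, 1439036_a_at, averaged 11.96 ± 0.061 log2 units in dDAVP cells and 11.74 ± 0.12 in vehicle cells (SD, n = 3 each). The log2 change was 0.22 ± 0.077 (SE, limma adjusted p = 0.503). Of its 5 probe sets, 4 had changes of 0.20 to 0.31, and the last, at a mean of 5.10, had -0.05. For those 4 all dDAVP arrays lay above all vehicle arrays, as they did for 8.07% of all probe sets. They share the same RNA samples and are not independent observations. The lowest limma adjusted p among the 5 was 0.267. Atp4a, a gastric proton-potassium pump gene, had -0.25 ± 0.12 and -0.12 without vehicle replicate 3, the cotransporter gene Slc12a2 had 0.07 ± 0.059 and the pump subunit gene Atp1b3 had 0.06 ± 0.061.

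The aldosterone axis, which drives potassium secretion in this segment, was represented by 4 of 5 listed genes, and 0 passed in limma. Nr3c2, which encodes the mineralocorticoid receptor itself, was the listed gene not analysed here. Nr3c1, the glucocorticoid receptor, was the 1 with an unadjusted p below 0.05, where 7.80% of all genes had such a p in either direction. Its probe set of highest signal measured 9.45, 9.48 and 9.44 in dDAVP cells and 9.61, 9.67 and 9.61 in vehicle cells. The groups did not overlap, and the log2 change was -0.17 ± 0.056 (SE, limma adjusted p = 0.464). The other Nr3c1 probe sets had -0.28, -0.23, -0.14 and -0.08, all with an unadjusted p above 0.05. Hsd11b2, which protects the mineralocorticoid receptor from glucocorticoids, had -0.04 ± 0.064. The aldosterone-induced kinase Sgk1 had 0.04 ± 0.076 and the steroid-induced gene Tsc22d3 had 0.02 ± 0.081.

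**Figure D4:**
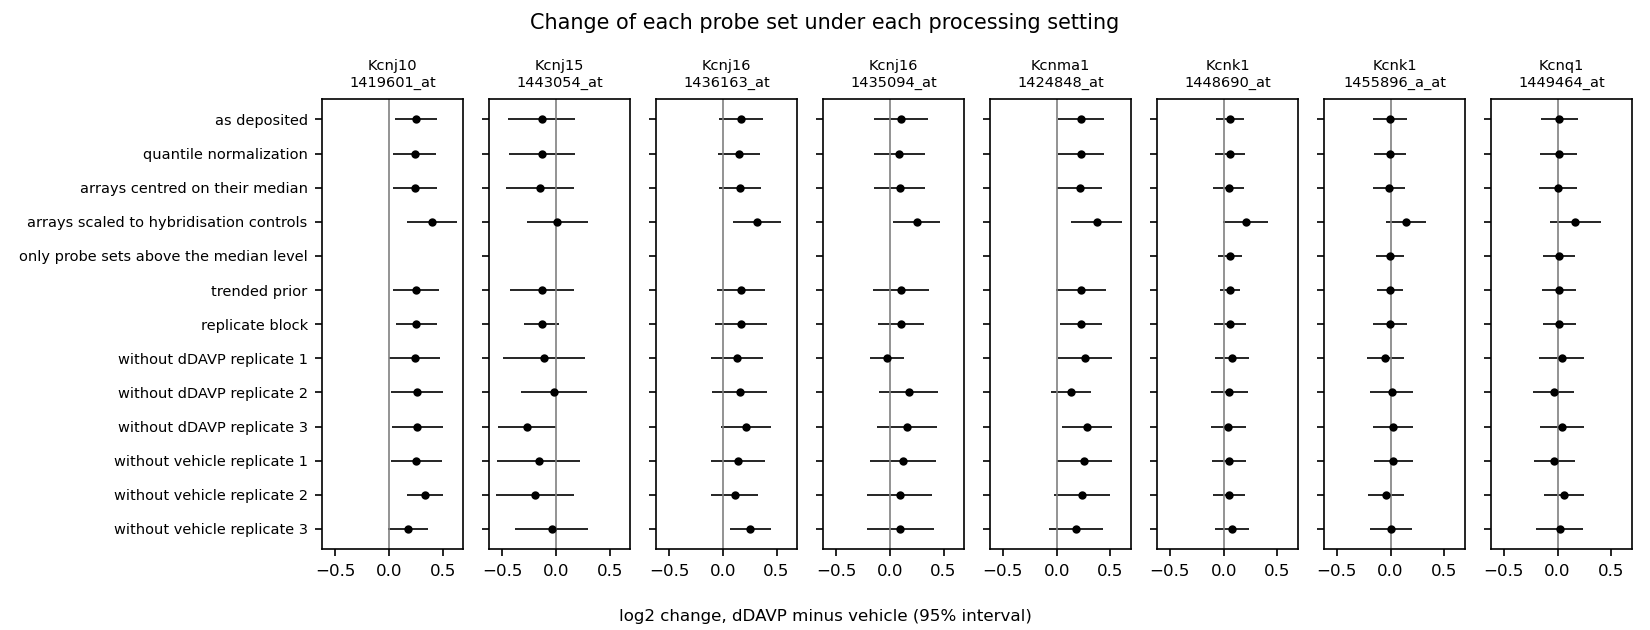
Log2 change (dDAVP minus vehicle) of each channel probe set with its 95% interval, in a row for each processing setting. With arrays scaled to hybridisation controls every channel value moved upward, and in some fits without 1 array the values of Kcnj16 1435094_at, Kcnk1 1455896_a_at and Kcnq1 crossed 0. Probe sets at or below the median level have no value in the row restricted to those above it.

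The scaling of the arrays set where 0 lies for all of these values. The hybridisation controls, which are foreign transcripts spiked into the labelled sample, averaged 10.46 ± 0.066 log2 units on dDAVP arrays and 10.61 ± 0.080 on vehicle arrays (SD, n = 3 each). Scaling each array to them moved the median log2 change of all probe sets to 0.15 and that of the channel probe sets to 0.23. Under that scaling 0 channel probe sets passed in limma, while 0.999% of all probe sets did. At an unadjusted p below 0.05, 4 of the 8 were higher, where 22.4% of all probe sets were. Kcnj10 then had 0.40 (limma adjusted p = 0.0916), which is 0.25 above the median of all probe sets. Kcnj15 and the second Kcnk1 probe set turned to positive values, of 0.01 and 0.14, which remain below that median.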

How the data were processed

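Total RNA was extracted with Trizol and labelled with biotin per the labels' protocols, and 1 array was hybridised per sample. The authors deposited log2 signals, 1 per probe set and array; MAS5, RMA and version 1.1 of Affymetrix Expression Console appear in the submitters' processing notes, which do not say what each was used for. The labels and the deposited table name no genome build; a RefSeq gene table (GRCm38.p6) was used only for which genes overlap. Such summaries can understate the changes of dim probe sets.

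Groups came from the titles. The 62 control probe sets were left out, and dDAVP and vehicle arrays were compared over the remaining 28225 in limma 3.58.1 (R 4.3.3, lmFit and eBayes, 4 residual degrees of freedom), with Benjamini-Hochberg adjustment over all of them and a threshold of 0.05. The code was tested on simulated data. A probe set was named only where the platform annotation gave 1 symbol. The probe set of highest mean over the 6 arrays stood for its gene. Intervals are 95% moderated intervals, and the number of arrays limits the precision.

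The members and lists were chosen with earlier results of these data known. All members were described, and in each list up to 4 genes by lowest p, plus the 3 profiles nearest to the member with the lowest p. Alternatives were quantile normalization, median centring, scaling to hybridisation controls, a filter on dim probe sets, a trended prior, a replicate block, fits without 1 array and averaging all probe sets per gene. Figures were drawn with matplotlib 3.10.9.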

Additional observations from a re-analysis of the deposited data

How the results depend on the processing

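Of 91 values of the 8 channel probe sets under the alternatives, 0 passed, and 82 kept their direction. Scaling to hybridisation controls reversed Kcnj15 to 0.01, Kcnk1 (1455896_a_at) to 0.14, Kcnd3 to 0.01, Kcns2 to 0.05, Lrrc26 to 0.13 and Hsd11b2 to 0.11, and Sgk2 passed there (0.48, adjusted p = 0.0447). That scaling moved the median of all probe sets to 0.15. In fits without 1 array the change lay between 0.18 and 0.33 for Kcnj10, -0.27 and -0.02 for Kcnj15, 0.11 and 0.25 for Kcnj16 1436163_at, -0.02 and 0.18 for Kcnj16 1435094_at, 0.13 and 0.28 for Kcnma1, 0.04 and 0.08 for Kcnk1 1448690_at, -0.05 and 0.02 for Kcnk1 1455896_a_at, and -0.04 and 0.06 for Kcnq1. It lay between -0.07 and 0.02 for Lrrc26, -0.01 and 0.11 for Sgk1 and -0.05 and 0.08 for Tsc22d3. The lowest adjusted p of a channel was 0.265 in those fits and 0.0916 in the others.

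With the replicate number as a block Kcnj10 had 0.25 (adjusted p = 0.504), and 0 of 8 channel probe sets passed; over all probe sets 24 passed in place of 61. The numbers were not taken as pairs in the main fit because the design states no pairing. Same-numbered arrays deviated together with correlations of -0.052 to 0.20. Of the 3 dDAVP arrays, 2 correlated best with the vehicle array of their own number. These correlations, from 3 arrays per group, do not settle if the arrays were paired. Over all probe sets 146 passed with a trended prior, 282 with hybridisation scaling, 95 above the median level and 22 to 46 without 1 array. Of the channels only Kcnk1 and Kcnq1 lay above the median level. Averaging all probe sets per gene gave 0.14 for Kcnj16 and 0.03 for Kcnk1, and 0 of 6 genes passed.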
